A study of Mus musculus with 11 samples.

Results

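Ripk3, Ripk1, Casp8, Mlkl and Zbp1, the core genes of necroptosis, were followed across cultured mouse cardiac progenitor cells and C2C12 myoblasts on single-colour Agilent arrays. A probe was taken where its gene name, an older synonym or its accession in the scanner output stood for 1 of these genes, which gave 7 probes of 41121 for 5 genes of 27567. The genes were chosen partly from results of these arrays, the signal of their own probes included, so their own levels and differences are given as a description, with standard errors and no test. Tests across all genes are given for 77 other genes of the pathway.

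The groups were progenitors labelled KO, from mice lacking beta-sarcoglycan (5 arrays), progenitors labelled WT, from wild-type mice (3 arrays), and C2C12, a single established mouse myoblast line that served as the control for muscle differentiation (3 arrays). The progenitors, called mesoangioblasts in the study's design, were grown from the atrium, the ventricle or the aorta, and per the labels those of WT mice form beating cardiomyocytes while those of KO mice form skeletal muscle fibres. Strain, age of the mice, passage, any treatment and which part of Sgcb was deleted were not given in the labels. Arrays that differed by less than the noise between repeated spots were averaged and counted once, which left 3 KO-labelled, 3 WT-labelled and 2 C2C12 samples, with 1 progenitor sample per region and label. Nothing in the labels ties the samples to separate mice or cultures, so a p-value reflects no more than the sample spread seen here, and that spread may be technical.

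Necroptosis is a form of lytic cell death that runs when caspase activity is low. Death receptors, Toll-like receptors or the nucleic acid sensor Zbp1 bring the kinase Ripk3 into filaments, directly or through Ripk1, and Ripk3 then phosphorylates the pseudokinase Mlkl, which breaks the plasma membrane. Casp8, held by the adaptor Fadd, cleaves Ripk1 and Ripk3 and so restrains the pathway, and in the mouse heart Ripk3 is also known to act through the kinase CaMKII.

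Ripk3 was above background on no KO-labelled array and Mlkl on only 1 WT-labelled array, so the windows around their start sites are shown. They run from 250 bases before to 50 bases after the start, from RefSeq on build GRCm38.p6, 5′ to 3′ on the gene's strand, with each CG pair in capitals. The Ripk3 window is chr14:55788808-55789107 on the minus strand and the Mlkl window is chr8:111338156-111338455 on the minus strand.
Ripk3: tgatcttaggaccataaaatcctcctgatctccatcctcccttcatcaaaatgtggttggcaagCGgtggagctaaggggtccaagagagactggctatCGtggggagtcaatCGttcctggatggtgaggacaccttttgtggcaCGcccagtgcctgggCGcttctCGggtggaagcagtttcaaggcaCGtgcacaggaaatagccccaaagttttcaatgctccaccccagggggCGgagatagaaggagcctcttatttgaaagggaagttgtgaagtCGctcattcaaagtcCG
Mlkl: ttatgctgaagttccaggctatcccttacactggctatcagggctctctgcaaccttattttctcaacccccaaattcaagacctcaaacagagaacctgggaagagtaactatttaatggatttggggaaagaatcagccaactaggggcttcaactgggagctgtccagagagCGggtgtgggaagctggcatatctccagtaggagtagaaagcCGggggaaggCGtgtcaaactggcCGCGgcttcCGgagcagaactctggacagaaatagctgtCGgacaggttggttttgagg

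The Ripk3 window held 10 CG pairs and the Mlkl window 7, against a median of 7 (quartiles 3 and 20) over 32851 mouse windows of the same length. Casp8 had 5 CG pairs, and the 2 windows of Ripk1 had 22 and 36. Searched on both strands, the Ripk3 window held 1 E box (CACGTG, at position -61 from the start, found in 7.15% of all windows) and 1 GC box (GGGCGG, at -14, found in 35.7%). The same search for these letters and for an interferon response core (GAAA, any 2 bases, GAAA, in 3.44% of windows), a STAT site (TTCNNNGAA, 8.30%), a TATA box (TATAAA, 13.6%) and an NF-kappaB site (GGGA, any 4 bases, CC, 20.7%) found no match in the Mlkl or Casp8 windows. The E box and the GC box each hold a CG pair, which is counted among the CG pairs too. In the Ripk1 windows it found GC boxes in both, and in the window starting at position 34002624 of chromosome 13 (GRCm38.p6, plus strand) also 1 interferon response core, at -5, and STAT sites at -108 and -11. Zbp1 had no window in the table.

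Several measurements bear on the labels. Levels here and below are log2 of the signal relative to each array's 75th percentile, so 0 marks a probe brighter than 3 in 4. Sgcb, the gene named as deleted, was not lower in KO-labelled samples. Its brightest probe read 2.64, 2.99 and 2.34 in KO-labelled atrium, ventricle and aorta, against 2.07, 2.20 and 1.82 in the WT-labelled regions, a log2 difference of 0.63 (SE 0.21, limma adjusted p = 0.0709). Where the deletion lies relative to that probe is not known, so the probe cannot check the labels, and the groups are called KO-labelled and WT-labelled throughout. Over 15801 genes, KO-labelled samples correlated at 0.966 to 0.974 with C2C12 and at 0.853 to 0.882 with WT-labelled samples. Of 6 skeletal myoblast markers (Myod1, Myf5, Myog, Cdh15, Des, Chrna1), all were above background on every KO-labelled and every C2C12 array and none on every WT-labelled array. The summed signal of that list was 46.4 to 149 times the array's 75th percentile in KO-labelled samples, against 0.0999 to 0.146 in WT-labelled samples and 70.5 to 152 in C2C12. Of 7 endothelial markers, Pecam1, Cdh5, Kdr and Tie1 were above background on no array and Tek on 1 C2C12 array. Egfl7 was measured on all 11 arrays and Erg on 0 of 5 KO-labelled, 3 of 3 WT-labelled and 0 of 3 C2C12 arrays, and both fell in KO-labelled samples. Erg was tested only because of its WT-labelled arrays, so it could not be called higher. The endothelial sum was 0.467 to 0.708 in KO-labelled samples, 1.12 to 3.23 in WT-labelled samples and 0.494 to 0.598 in C2C12, and its part in the results below was not tested. Of 6 cardiomyocyte markers, Ryr2 was above background on no array, Nppa on 1 of 5 KO-labelled and 3 of 3 WT-labelled arrays, Tnni3 on 5 of 5 and 1 of 3, and Myh6 and Actn2 on 2 of 5 and 0 of 3. Their sum was 0.132 to 0.293 in KO-labelled samples, 0.190 to 0.2505 in WT-labelled samples and 0.289 to 0.483 in C2C12. Fibroblast markers summed to 188 to 213 in KO-labelled, 134 to 217 in WT-labelled and 215 to 246 in C2C12 samples. Most of that sum came from Col1a1 and Col1a2. These were 2 of 5 tested and higher in KO-labelled samples (0.77 and 0.91), and 3 were lower, Dcn (-4.16), Pdgfra (-4.11) and Thy1 (-11.6). Thy1 was above background on 0 of 5 KO-labelled, 3 of 3 WT-labelled and 0 of 3 C2C12 arrays, so it could not be called higher. The part of fibroblast markers in the results below was not tested. Smooth muscle and pericyte markers summed to 127 to 202, 21.2 to 107 and 241 to 270 in KO-labelled, WT-labelled and C2C12 samples, with 3 of 5 higher and 0 lower. Over all tested genes 13.7% were higher and 16.1% lower in KO-labelled samples. No slide held both KO-labelled and WT-labelled arrays, so slide and label cannot be told apart except through the C2C12 arrays present on all 3 slides. In RNA from whole cultures, fewer cells of a type and less RNA per cell cannot be told apart.

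Ripk3, the kinase at the centre of the pathway, was measured by 1 probe (mm8, chromosome 14, 54739183 to 54739242, minus strand). Its signal before scaling was 5.68 to 24.2 intensity units on the 5 KO-labelled arrays and 9270, 12517 and 16314 units on the WT-labelled atrium, ventricle and aorta arrays, with 336 to 448 units on the 3 C2C12 arrays. The probe was well above background, by the scanner software's own flag, on 0 of 5 KO-labelled, 3 of 3 WT-labelled and 3 of 3 C2C12 arrays. The groups therefore did not overlap, with WT-labelled cells highest, C2C12 between and KO-labelled cells not above background.

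On the log2 scale Ripk3 read -6.81, -6.67 and -5.55 in KO-labelled atrium, ventricle and aorta, against 3.06, 3.61 and 3.83 in the WT-labelled regions. C2C12 read -1.47 and -1.27. Values near background have no order, so the spread among the KO-labelled regions carries no ranking. Because no KO-labelled array measured the probe, the difference is a bound. Ripk3 was at least 352-fold lower in KO-labelled than in WT-labelled samples, with a difference of the measured means of -9.85 (SE 0.39). It was at least 12.03-fold lower in KO-labelled samples than in C2C12 (-4.97, SE 0.41), and in WT-labelled samples 29.3-fold higher than in C2C12 (log2 4.87, SE 0.41). Among 15801 genes above background on at least 3 arrays, 19 (0.12%) had this pattern of detection, on no KO-labelled array and on every WT-labelled and C2C12 array.

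The difference in Ripk3 between the labels had the same sign in each region, and no slide held both labels. KO-labelled minus WT-labelled was -9.88 in atrium, -10.28 in ventricle and -9.38 in aorta. Against the C2C12 array of the same slide, KO-labelled arrays differed by -4.34 on slide 1 and -5.05 on slide 3, and WT-labelled arrays by 4.77 on slide 2. With slide as a block, tied through C2C12, the KO-labelled minus WT-labelled difference was -9.64. With a background correction that adds an offset of 50 to every signal (normexp), it was -6.56, and the difference from C2C12 was -2.0.

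**Figure D1:**
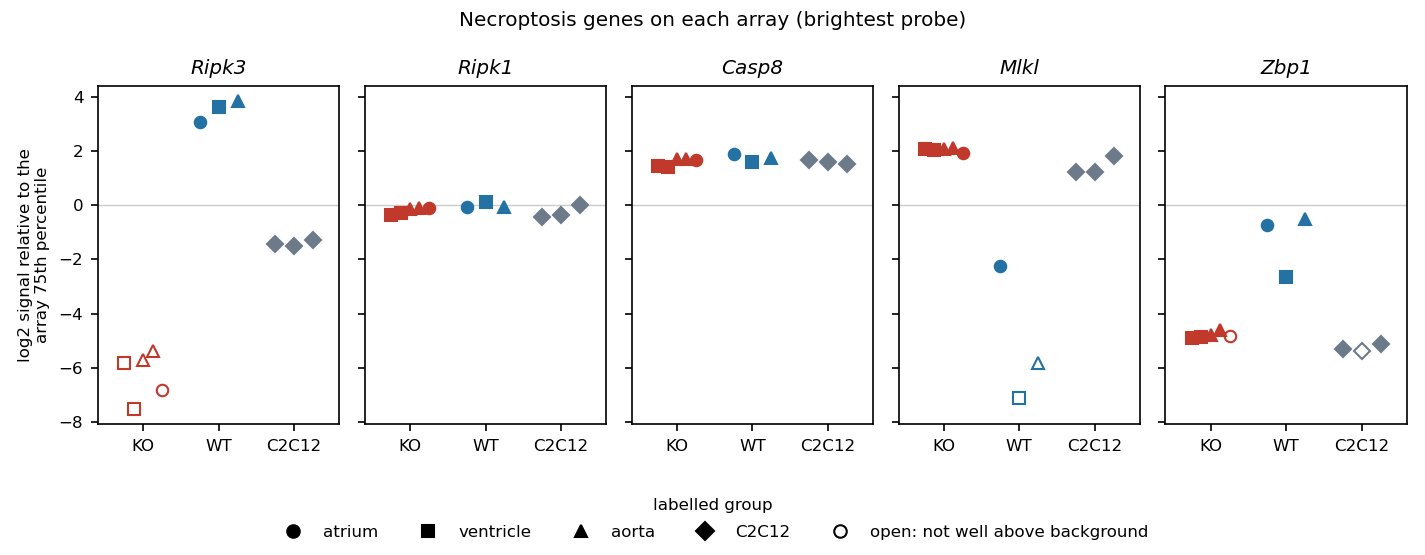
Level of the brightest probe of each necroptosis gene on every array, as log2 signal relative to the array's 75th percentile, by labelled group, where symbols give the region and open symbols mark arrays where the probe was not well above background. Ripk3 lies at -7.52 to -5.38 on the KO-labelled arrays, all open, and at 3.06 to 3.83 on the WT-labelled arrays, while Mlkl is open on the WT-labelled ventricle and aorta arrays.

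Mlkl, the membrane-breaking effector that Ripk3 phosphorylates, had the opposite order. Its probe (mm8, chromosome 8, 114198670 to 114198729, minus strand) read 1.91, 2.06 and 2.09 in KO-labelled atrium, ventricle and aorta, against -2.23, -7.11 and -5.80 in the WT-labelled regions, with 1.24 and 1.80 in C2C12. It was above background on 5 of 5 KO-labelled arrays, on 1 of 3 WT-labelled arrays (the atrium) and on 3 of 3 C2C12 arrays. The KO-labelled samples lay close together, and all were above every WT-labelled sample and above both C2C12 samples.

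Within the WT-labelled samples the atrium stood apart from the other regions for Mlkl. The KO-labelled minus WT-labelled difference was 4.15, or 17.7-fold, in atrium, where both arrays measured the probe. The KO-labelled ventricle exceeded the WT-labelled ventricle at least 200-fold, and the KO-labelled aorta exceeded the WT-labelled aorta at least 92.7-fold. C2C12 exceeded the WT-labelled ventricle at least 138-fold and the WT-labelled aorta at least 62.6-fold. Over all regions the difference of the measured means was 7.07 (SE 1.19) between KO-labelled and WT-labelled samples and 0.50 (SE 1.24) between KO-labelled samples and C2C12. The SE of 1.24 pools the spread of all 3 groups, WT-labelled samples included. With only the KO-labelled and C2C12 samples fitted it was 0.20. With the normexp correction the KO-labelled minus WT-labelled difference was 4.74, and WT-labelled minus C2C12 was -4.31, against -6.57 without it. On slides 1 and 3, KO-labelled arrays exceeded the C2C12 array of their own slide by 0.82 and 0.79. Of the same 15801 genes, 584 (3.7%) were above background on every KO-labelled and C2C12 array and on at most 1 WT-labelled array. The skeletal myoblast markers given above moved with Mlkl, high in KO-labelled samples and C2C12 and low in WT-labelled samples, and their part in the result was not tested.

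Zbp1, a sensor of Z-form nucleic acid that is itself induced by interferon, was higher in WT-labelled samples. Its probe (mm8, chromosome 2, 172849549 to 172849608, minus strand) read -4.83, -4.87 and -4.70 in KO-labelled atrium, ventricle and aorta, against -0.72, -2.66 and -0.50 in the WT-labelled regions, with -5.33 and -5.12 in C2C12. It was above background on 4 of 5 KO-labelled, 3 of 3 WT-labelled and 2 of 3 C2C12 arrays, so KO-labelled cells and C2C12 were at the edge of detection. The WT-labelled samples were all above the others, and among them the ventricle was lowest. Zbp1 was 11.4-fold lower in KO-labelled than in WT-labelled samples (log2 -3.50, SE 0.57), and the difference was -4.11 in atrium, -2.21 in ventricle and -4.20 in aorta. KO-labelled samples differed from C2C12 by 0.43 (SE 0.59) and WT-labelled samples by 3.93 (SE 0.59). These SEs pool the spread of all 3 groups, and with only the 2 compared groups fitted they were 0.13 and 0.69. With slide as a block the KO-labelled minus WT-labelled difference was -3.30, and with the normexp correction -1.70.

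A list of 12 interferon-stimulated genes moved with Zbp1. Its summed signal was 0.718 to 1.68 times the array's 75th percentile in KO-labelled samples, against 10.3 to 51.3 in WT-labelled samples and 1.07 to 1.16 in C2C12. Of 11 members tested, 11 fell in KO-labelled relative to WT-labelled samples, where 16.1% of all genes fell. Oas1a, Rsad2 and Usp18 among them were above background on no KO-labelled array. They were tested only because of their WT-labelled arrays, so they could not be called higher. Irf7 and Ifi44, above background on 1 KO-labelled and 3 WT-labelled arrays, also passed the filter only through the WT-labelled ones. The count of 11 is therefore partly set by that filter. With slide as a block, where 5.65% of all genes were called, the count of interferon-stimulated genes called was 6. Among macrophage and blood markers, Ptprc, Adgre1, C1qa and Tyrobp were above background on no array, and 2 of 4 tested markers of a list of 9 fell in KO-labelled samples. Those were C1qb (-0.68), measured on every array, and Lyz2, which was above background on WT-labelled arrays alone and could not be called higher. Csf1r (-1.40) and Cd68 (0.18) were not called, and Cd68 was above background on 5 KO-labelled arrays and 1 WT-labelled array. The summed signal of the list of 9 was 0.181 to 0.263 in KO-labelled samples, 1.23 to 2.45 in WT-labelled samples and 0.226 to 0.253 in C2C12. Most of the WT-labelled sum came from Lyz2. Lyz2, the lysozyme gene of myeloid cells, read -6.85 to -5.79 in KO-labelled and -0.03 to 1.00 in WT-labelled samples, and its part in the result for Zbp1 or Ripk3 was not tested.

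Casp8 and Ripk1, which decide between apoptosis, survival and necroptosis downstream of death receptors, differed less between the groups. Casp8 (mm8, chromosome 1, 58789303 to 58789362, plus strand) read 1.68, 1.43 and 1.71 in KO-labelled atrium, ventricle and aorta, against 1.88, 1.58 and 1.74 in the WT-labelled regions, with 1.64 and 1.51 in C2C12. The groups overlapped, and the KO-labelled minus WT-labelled difference was -0.13 (SE 0.15).

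Ripk1 had 3 probes on chromosome 13 (mm8, plus strand). The brightest (34040748 to 34040807) read -0.10, -0.31 and -0.12 in KO-labelled atrium, ventricle and aorta, against -0.08, 0.11 and -0.05 in the WT-labelled regions, with -0.40 and 0.01 in C2C12. The KO-labelled samples lay just below the WT-labelled ones, with a difference of -0.17 (SE 0.14) that turned to 0.23 with slide as a block. A second probe (34040086 to 34040145) also gave -0.17. The probe farthest along the gene (34041857 to 34041916) gave -0.70, with -0.66 in atrium, -0.76 in ventricle and -0.68 in aorta, so the probes of Ripk1 disagreed in size. Against the C2C12 array of the same slide, that probe gave -0.08 on slide 1 and -0.21 on slide 3 for KO-labelled arrays. For WT-labelled arrays it gave 0.73 on slide 2. All 3 probes were above background on all 11 arrays. Ripk3, Ripk1, Mlkl and Zbp1 did not overlap between KO-labelled and WT-labelled samples, and neither did 49.3% of all tested genes.

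**Figure D2:**
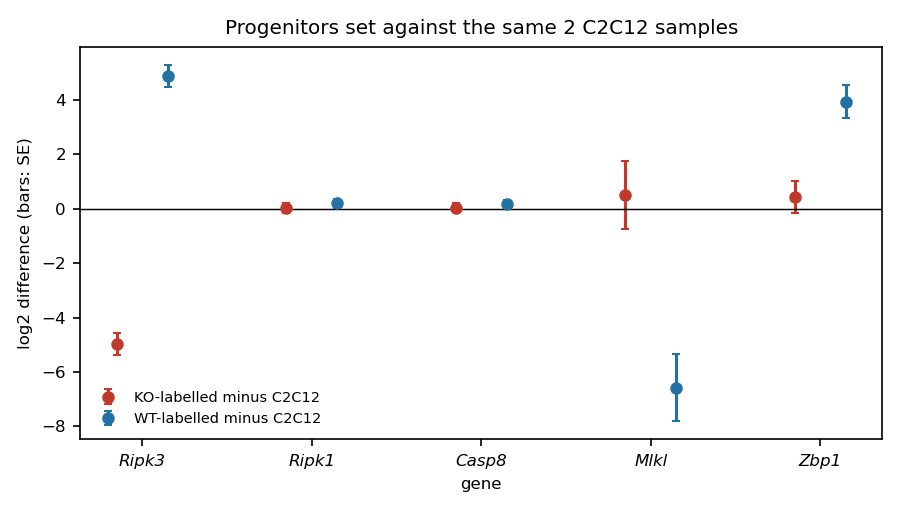
Difference of KO-labelled and of WT-labelled samples from the same 2 C2C12 samples, in log2 units with standard errors from the limma fit, for the brightest probe of each gene. The fit pools the spread of all groups, so the spread of WT-labelled samples enters the KO-labelled bars too. Ripk3 lies at -4.97 for KO-labelled and 4.87 for WT-labelled samples, Mlkl at 0.50 and -6.57, and Ripk1 and Casp8 lie near 0 for both.

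The other 77 genes of the pathway were grouped into 8 roles. Of 70 tested between KO-labelled and WT-labelled samples, 5 rose, 18 fell and 47 were not called at a Benjamini-Hochberg adjusted p under 0.05 in limma. That is 32.9% of the list, near the 29.8% called over all 14999 tested genes, of which 13.7% were higher and 16.1% lower in KO-labelled samples. The median difference of the list was -0.22, and that of all genes -0.06. With slide as a block, where 5.65% of all genes were called, the count was 2. The count was 14 without KO-labelled aorta, where 19.7% of all genes were called, and 14 without KO-labelled atrium (18.2%). It was 13 without WT-labelled ventricle (20.9%) and 15 without WT-labelled aorta (19.7%). Without KO-labelled ventricle it was 16 (21.6%), and without WT-labelled atrium 31 (40.9%).

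**Figure D3:**
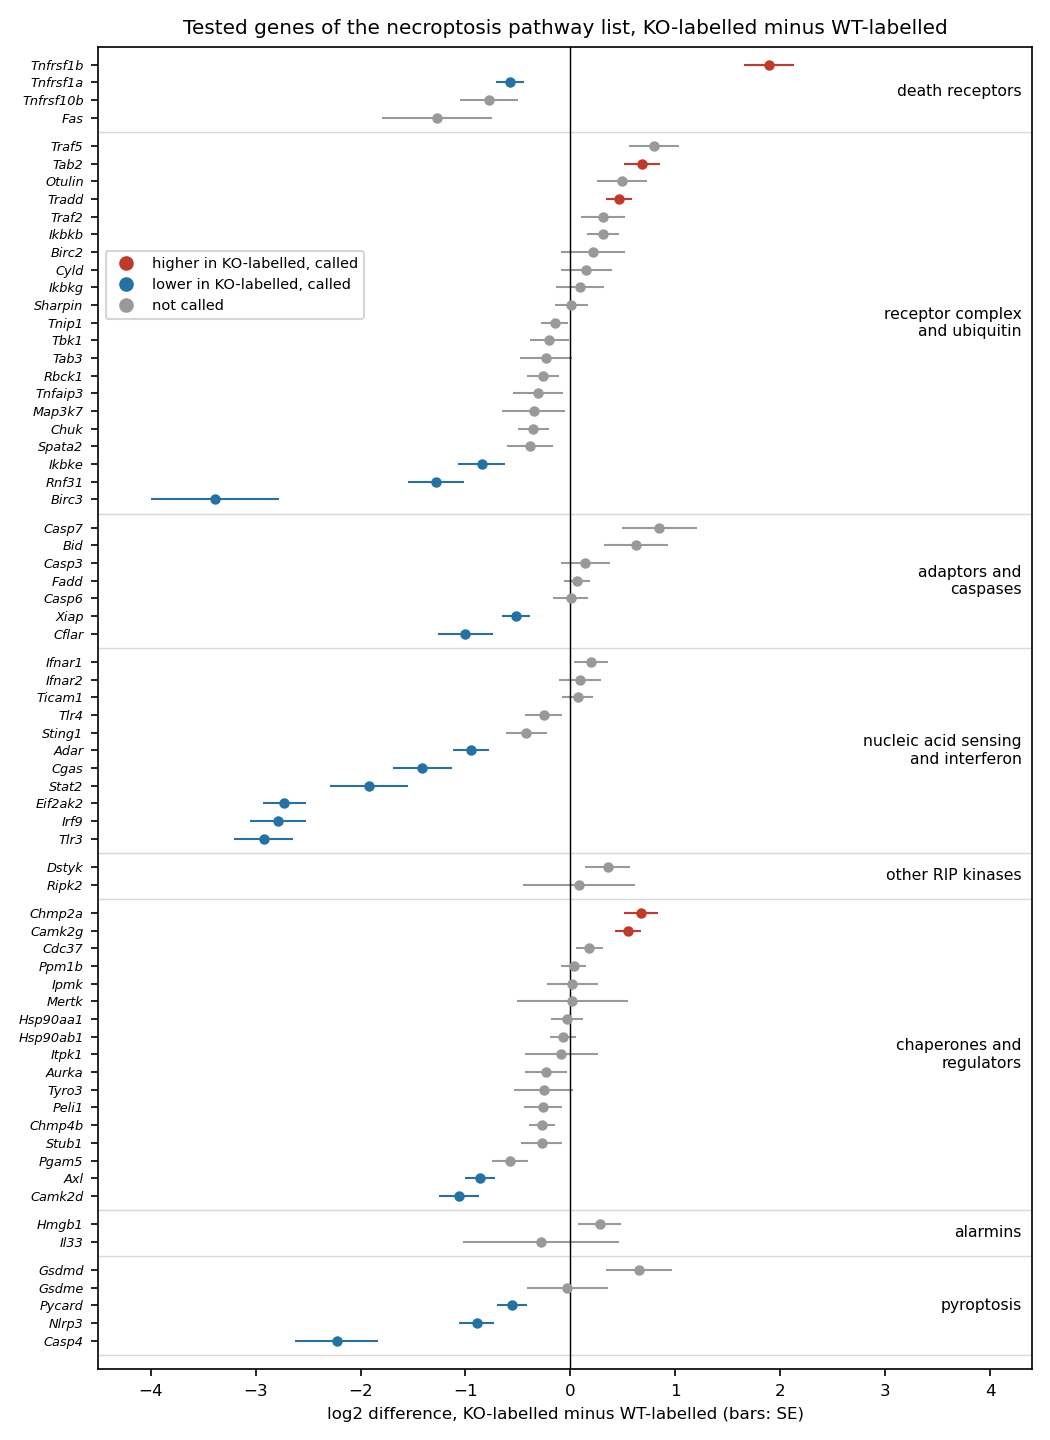
Log2 difference, KO-labelled minus WT-labelled, with standard errors, for 69 of the 70 tested genes of the pathway list, ordered within 8 roles; colours mark genes called at adjusted p under 0.05. The drawn genes hold 5 that rose and 17 that fell, spread over the roles, and the drawn nucleic acid sensing genes hold 6 that fell and 0 that rose.

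Among death receptors and ligands, 4 of 7 genes were tested, 1 rose and 1 fell, where 13.7% of all genes rose and 16.1% fell. Tnfrsf1b, the second receptor for tumour necrosis factor, read 0.18, 0.62 and 0.54 in KO-labelled atrium, ventricle and aorta, against -1.02, -1.68 and -1.63 in the WT-labelled regions. It rose by 1.89 (SE 0.24, limma adjusted p = 0.00238) in KO-labelled samples, with no overlap, although its other probe gave 0.08. Tnfrsf1a, the first receptor and the main trigger of necroptosis by this cytokine, fell by 0.57 (SE 0.13, limma adjusted p = 0.0236), with 3.21 to 3.43 in KO-labelled and 3.86 to 4.02 in WT-labelled samples. Fas, the receptor for Fas ligand, gave -1.27 on its brightest probe (limma adjusted p = 0.120) and 2.80 on another, so its direction depends on the probe. Of the ligands, Fasl and Tnfsf10 were above background on no array and Tnf on 1 C2C12 array alone.

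In the receptor complex and its ubiquitin system, 21 of 21 genes were tested, 2 rose and 3 fell. That is 23.8% called, below the 29.8% of all genes. Birc3, a ubiquitin ligase of Ripk1, read -5.12, -4.29 and -4.16 in KO-labelled atrium, ventricle and aorta, against 0.22, -1.82 and -1.79 in the WT-labelled regions. It was above background on 4 of 5 KO-labelled arrays and fell by 3.39 (SE 0.61, limma adjusted p = 0.00941), with no overlap. The difference was -1.83 with the normexp correction (limma adjusted p = 0.0592) and -2.93 with slide as a block (limma adjusted p = 0.260). Birc3 lay in KO-labelled samples where it lay in C2C12 (-4.78 and -4.33). Its paralog Birc2 differed by 0.21 (limma adjusted p = 0.641). Rnf31, the catalytic subunit of the linear ubiquitin ligase, fell by 1.28 (SE 0.27) on its brightest probe and gave -1.26 on the other. Ikbke, an I-kappa-B kinase, fell by 0.85 (SE 0.22), and Tab2, which links ubiquitin chains to the kinase Map3k7, rose by 0.69 (SE 0.17). The deubiquitinase Cyld (0.15, limma adjusted p = 0.682) and the ubiquitin-editing enzyme Tnfaip3 (-0.31, limma adjusted p = 0.381) were not called.

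Of the adaptors, caspases and their inhibitors, 7 of 7 were tested, 0 rose and 2 fell. That is 28.6% called, near the 29.8% of all genes. Cflar encodes the inactive caspase homolog that pairs with Casp8 and holds necroptosis in check. It read 1.92, 1.99 and 2.09 in KO-labelled atrium, ventricle and aorta, against 2.45, 3.18 and 3.38 in the WT-labelled regions. It fell by 1.00 (SE 0.26, limma adjusted p = 0.0330), with no overlap, and all 6 of its probes gave a negative difference, between -2.02 and -0.78. Xiap, a caspase inhibitor and ubiquitin ligase, fell by 0.52 (SE 0.13). Fadd, the adaptor that carries Casp8, read 0.20 to 0.29 in KO-labelled and 0.09 to 0.26 in WT-labelled samples, a difference of 0.07 (limma adjusted p = 0.732) with overlap.

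All 12 genes of nucleic acid sensing and interferon input were tested, and 7 fell and 0 rose in KO-labelled samples, where 16.1% of all genes fell. Tlr3, the endosomal receptor for double-stranded RNA, was above background on 0 of 5 KO-labelled, 3 of 3 WT-labelled and 0 of 3 C2C12 arrays. It read -6.77, -6.71 and -7.27 in KO-labelled atrium, ventricle and aorta, against -3.48, -4.37 and -4.14 in the WT-labelled regions, and was at least 1.95-fold lower (measured difference -2.92, limma adjusted p = 0.000919). Tlr3 was tested only because of its WT-labelled arrays, so it could not be called higher. With the normexp correction the difference was -0.37 (limma adjusted p = 0.529) and the call was lost, as it was with slide as a block (limma adjusted p = 0.0730). Its adaptor Ticam1, which binds Ripk1 and Ripk3, differed by 0.07 (limma adjusted p = 0.765).

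Eif2ak2, the RNA-activated kinase PKR, fell by 2.72 (SE 0.21, limma adjusted p = 0.000361), with -0.73 to -0.23 in KO-labelled and 2.04 to 2.57 in WT-labelled samples. Irf9 and Stat2 belong to the factor that carries the type I interferon signal to its genes. Irf9 fell by 2.79 (SE 0.27, limma adjusted p = 0.000896), with -2.29 to -2.09 in KO-labelled and 0.21 to 1.15 in WT-labelled samples. Stat2 fell by 1.92 (SE 0.37, limma adjusted p = 0.0124), a call that ended without KO-labelled atrium (limma adjusted p = 0.0513). None of these groups overlapped. Eif2ak2 and Irf9 were the 2 genes of the whole list still called with slide as a block, at limma adjusted p of 0.0387 and 0.0302. The summed interferon-stimulated signal given beside Zbp1 moved with this group, and its part was not tested.

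**Figure D4:**
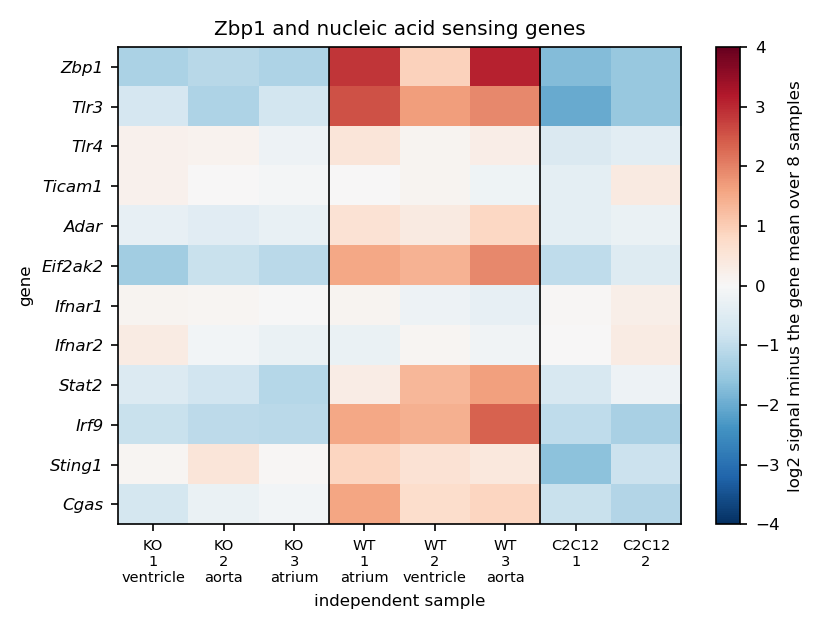
Level of Zbp1 and of 11 of the 12 nucleic acid sensing and interferon input genes in the 8 independent samples, as log2 signal minus the mean of the gene over those samples. Zbp1, Tlr3, Eif2ak2 and Irf9 are above their mean in all 3 WT-labelled samples and below it in all KO-labelled and C2C12 samples, whereas Ticam1, Ifnar1 and Ifnar2 stay near 0.

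Of 17 chaperones, phosphatases and other regulators of Ripk3 or Mlkl, all were tested, 2 rose and 2 fell. That is 23.5% called, below the 29.8% of all genes. Camk2d, the main heart form of CaMKII and a target of Ripk3 in mouse heart, fell by 1.06 (SE 0.19, limma adjusted p = 0.00951) on its brightest probe, with 2.14 to 2.57 in KO-labelled and 3.19 to 3.68 in WT-labelled samples. Its 4 probes above background on at least 3 arrays ranged from -1.08 to -0.07, and the call was lost when all 5 of its probes were averaged. Camk2g, another CaMKII gene, rose by 0.55 (SE 0.13). Axl, a receptor kinase of the family that acts on Mlkl, fell by 0.86 (SE 0.14), and Chmp2a, a subunit of the ESCRT-III membrane repair machinery, rose by 0.67 (SE 0.16). Ppm1b, a phosphatase of Ripk3, differed by 0.03 (limma adjusted p = 0.875) on its brightest probe, and was called at -0.50 when its probes were averaged. Pgam5, a mitochondrial phosphatase, gave -0.58 (limma adjusted p = 0.0545).

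Among the other RIP kinases 2 of 3 genes and among released alarmins 2 of 3 genes were tested, with 0 called in either by limma and 0 at an unadjusted p under 0.05. Pyroptosis, the other lytic death programme, had 5 of 7 genes tested, 0 rose and 3 fell, where 16.1% of all genes fell. Casp4, the caspase that senses bacterial lipopolysaccharide, read -0.80, 0.66 and -0.25 in KO-labelled atrium, ventricle and aorta, against 2.46, 1.92 and 1.91 in the WT-labelled regions, and fell by 2.23 (SE 0.39, limma adjusted p = 0.00872). Pycard, the inflammasome adaptor, fell by 0.56 (SE 0.15). Nlrp3, an inflammasome sensor, was above background on 1 of 5 KO-labelled arrays and 3 of 3 WT-labelled arrays. It was thus tested only because of its WT-labelled arrays. Its KO-labelled samples read -5.40 to -5.14, at the edge of detection, against -4.64 to -4.25 in WT-labelled samples. It was called lower by limma (adjusted p = 0.0104), but the size of that difference is not resolved at this signal, and with the normexp correction the value was 0.14 and was not called.

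Of the 19 calls named between KO-labelled and WT-labelled samples, 9 held when any 1 of the 6 samples was left out. These were Tnfrsf1b, Birc3, Tlr3, Eif2ak2, Irf9, Camk2d, Axl, Casp4 and Nlrp3. Of these, Tlr3 and Nlrp3 were tested only because of their WT-labelled arrays. The call of Rnf31 ended without KO-labelled aorta, KO-labelled atrium or WT-labelled ventricle. Those of Tnfrsf1a, Cflar, Xiap, Ikbke, Tab2, Chmp2a, Camk2g and Pycard ended without any 1 of 4 or 5 of the 6 samples, with limma adjusted p up to 0.120. With the normexp correction 10 of the 19 calls held, and those of Birc3, Tlr3, Ikbke, Tab2, Xiap, Chmp2a, Camk2g, Nlrp3 and Pycard did not.

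Set against C2C12, 0 of 71 tested genes of the list were called in KO-labelled samples by limma, where 1.22% of all 15801 genes were called. Of the list, 7 had an unadjusted p under 0.05, a threshold for which no share of all genes is given. Alternatives gave 6 with every array as its own sample, where 10.3% of all genes were called. They gave 1 with probes averaged (1.09% of all genes) and 1 without WT-labelled atrium (2.82%). In WT-labelled samples 13 rose and 6 fell relative to the same C2C12 samples, 19 of 71 where 27% of all genes were called. Nucleic acid sensing and interferon input held 9 of those that rose, of 12 tested, where 13.8% of all genes rose. Tlr3, among these 9, was tested only because of its WT-labelled arrays and could not be called lower. The roles of adaptors and of alarmins held 0 called. Tlr3 (log2 3.81, at least 2.90-fold), Birc3 (3.43), Irf9 (2.92) and Eif2ak2 (2.38) rose and Tnfrsf1b (-2.29) fell in WT-labelled samples. Both comparisons share the C2C12 samples. The count of 19 was 29 without WT-labelled atrium, where 36.7% of all genes were called, and 10 with slide as a block, where 14.5% were. Leaving out a C2C12 sample leaves 1 in that group, and no count is given for it.

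The 5 genes whose level followed Ripk3 most closely over the 8 samples, among 15801 genes and by Pearson's r, were Il11ra1 (0.995), Naa35 (0.992), Rab11fip3, Lgalsl and Apcdd1 (0.991 each). These are descriptions, and with 3 groups of samples on 3 slides they share label and slide. The 3 KO-labelled values of Ripk3 come from arrays where its probe was not above background and have no order, so the order of these r values carries no ranking. Il11ra1, an interleukin 11 receptor chain, read -2.78 to -1.48 in KO-labelled, 3.91 to 5.02 in WT-labelled and 0.56 to 1.03 in C2C12 samples. Lgalsl, a galectin-like gene, was, like Ripk3, above background on 0 of 5 KO-labelled, 3 of 3 WT-labelled and 3 of 3 C2C12 arrays, with 2.77 to 2.97 in WT-labelled and -3.23 to -2.48 in C2C12 samples. Naa35, a subunit of an N-terminal acetyltransferase, spanned little, from 3.52 to 3.53 in KO-labelled and 3.92 to 3.98 in WT-labelled samples. Of the necroptosis genes, Zbp1 had r = 0.80 with Ripk3, Ripk1 0.50, Casp8 0.42 and Mlkl -0.87.

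**Figure D5:**
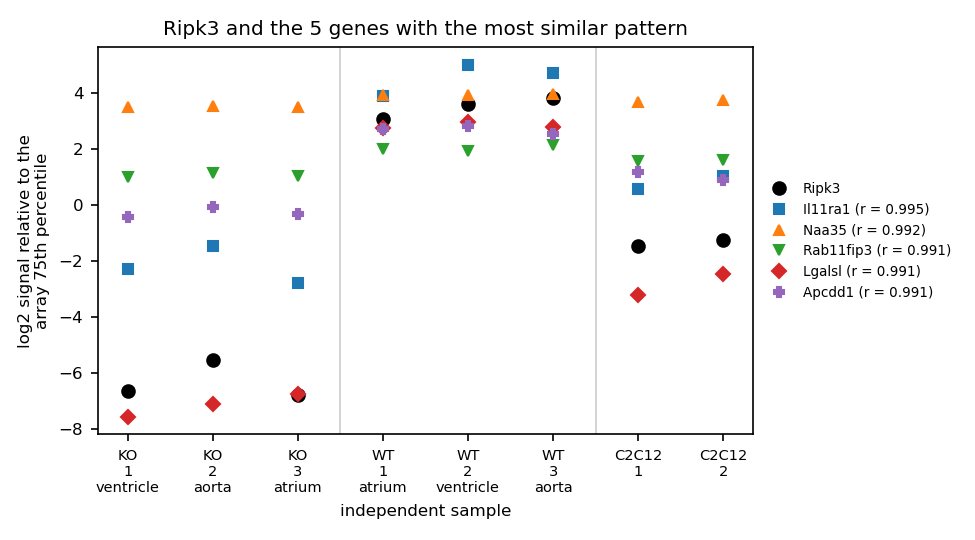
Level of Ripk3 and of the 5 genes with the highest Pearson r to it over 8 independent samples, as log2 signal relative to the array's 75th percentile. All 6 genes are highest in the WT-labelled samples, lowest in the KO-labelled samples and between in C2C12, over ranges that differ widely, from Lgalsl at -7.58 to 2.97 to Naa35 at 3.52 to 3.98.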

How the data were processed

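Total RNA was labelled with Cy3 and hybridised to 11 1-colour Agilent arrays, per the labels. The authors deposited scanner output of Agilent Feature Extraction 9.5.3.1 (version per the submitters' processing notes), whose intensity values had the background subtracted and no scaling between arrays, per the file headers. A series-wide table, also deposited, gave log2 values, which matched log2 of those signals within 0.01 for at least 99.7% of probes and served as an alternative. Control spots (1639 of 45018 per array) and marked spots (39 to 120) were left out, and no spot was saturated. Probes well above background made up 49.0 to 62.0% per array. Precision is limited by the small number of arrays.

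Values are log2 of the signal minus each array's 75th percentile. Arrays of 1 group whose differences over 13774 bright probes fell below spot-to-spot noise (3 of 16 pairs, at 0.637 to 0.740 of it, the others at 2.62 or more) were averaged, after the data were seen. Genes with a probe above background on at least 3 fitted arrays were tested with limma 3.58.1 in R 4.3.3 (lmFit, eBayes), 1 probe per gene (the highest mean), with Benjamini-Hochberg adjustment over all of them. The fit of KO with WT used the 6 progenitor samples, and the fits with C2C12 used all 8. The fit was tested on simulated data. Where no array of a group measured a probe, the fold is a bound against the lowest signal above background on each array or the probe's own signal, whichever is higher.

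Members, lists and tests were chosen with earlier results of these data known. Named pathway genes are 12 fixed names and, per role, up to 4 called genes with the greatest difference. Probe names were updated through RefSeq (GRCm38.p6) for 33060 probes and kept for 8061, and positions of probes come from the array design, on mm8. Alternatives are given in the closing section. 1 item is counted in the lists but not reported here. Python 3.11.15 (pandas 2.3.3, numpy 2.4.6, matplotlib 3.10.9) made tables and plots.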

Additional observations from a re-analysis of the deposited data

How the results depend on the processing

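Between WT-labelled samples and C2C12, the Ripk3 difference stayed between 4.56 and 5.09 under every alternative run. Its difference between KO-labelled and WT-labelled samples was -10.24 to -9.61 with 1 sample left out and -6.56 with normexp, and between KO-labelled samples and C2C12 -5.37 to -4.74 and -2.0, with no change of sign under any alternative run. The number of pathway genes called between KO-labelled and WT-labelled samples was 23. With 1 sample left out it was 13 to 31, where 18.2 to 40.9% of all genes were called. It was 13 with normexp (18.6% of all genes), 15 with no filter on dim probes (11.9%) and 2 with slide as a block (5.65%). Between KO-labelled samples and C2C12 (0) it was 0 to 1 with 1 progenitor sample left out (0.42 to 2.82% of all genes). It was 1 with probes averaged (1.09%) and 6 with every array as its own sample (10.3%). Between WT-labelled samples and C2C12 (19) it was 14 to 29 with 1 progenitor sample left out (20.5 to 36.7% of all genes). It was 12 with normexp (15.8%), 10 with slide as a block (14.5%) and 31 with every array as its own sample (42.2%). With a C2C12 sample left out, the other is assumed to vary like the progenitors. The causes were not tested. Of all genes, 892 (5.65%) were called between KO-labelled and WT-labelled samples with slide as a block, against 4466 without it. Scaling each array to its median moved the median difference of all genes to 0.05, against -0.06, and that of the list to -0.11, against -0.22. With that scaling 6 genes of the list were called higher and 15 lower, where 26.8% of all genes were called. Tnfrsf1a, Xiap and Pycard were then no longer called. Among named pathway genes, 2 turned sign where the main or the other setting called them: Ppm1b (-0.50 with probes averaged) and Nlrp3 (0.14 with normexp). Fas, Cyld, Tnfaip3 and Ticam1, called in neither setting, also turned sign under at least 1 alternative. So did the differences of Ripk1 on its brightest probe and, against C2C12, Casp8. The labels give no replicate numbers. With region as a block, which pairs KO-labelled with WT-labelled samples, 17 pathway genes were called (2 higher, 15 lower), where 24.3% of all genes were called. Tnfrsf1a, Tab2, Xiap, Camk2g and Pycard were not called with that block. Low signal limits Ripk3 and Tlr3 in KO-labelled samples and Mlkl in WT-labelled ventricle and aorta to bounds. It leaves Nlrp3, Zbp1 and Birc3 in KO-labelled samples at the edge of detection.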
